A study of Mus musculus with 2 samples.

Results

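The miR-29 family of the mouse comprises 4 microRNA genes, Mir29a, Mir29b-1, Mir29b-2 and Mir29c, and their levels were read from 2 small RNA libraries of fetal liver. The genes were taken by name. Ensembl identifiers in the count tables were matched to symbols through the mouse GENCODE annotation M21, and all 4 were found among 1973 counted genes. Both libraries came from liver of healthy B6NCrl embryos at 13.5 days, each from its own biosample of pooled males and females, and the labels tie both biosamples to the same donor entry. The labels record no treatment, no transgene and 1 group, so there is no contrast between conditions. How many embryos entered each pool is not given in the sources used here, and the spread between the 2 libraries is the replicate error throughout. RNA below 30 bases had been selected.

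MicroRNAs are cut from hairpin transcripts, and 1 arm of the hairpin is loaded into an Argonaute protein, where the seed (bases 2 to 8 of the mature RNA) pairs with messenger RNAs and lowers their stability and translation. miR-29 is known for acting on a broad set of extracellular matrix transcripts, among them fibrillar and basement membrane collagens, elastin and fibrillin, and on the DNA methyltransferases Dnmt3a and Dnmt3b. In adult liver it is known to fall in activated stellate cells during fibrosis. At mid-gestation the liver is the main blood-forming organ and also holds hepatoblasts, endothelium and mesenchyme. Messenger RNAs were not measured, so the levels of these targets are not part of the data.

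The family rests on a common seed, and its mature sequences show where reads of the members can and cannot be told apart. The 3p arms, from RefSeq on GRCm38.p6, are printed 5′ to 3′ with the seed in capitals.

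miR-29a-3p: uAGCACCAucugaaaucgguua

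miR-29b-3p: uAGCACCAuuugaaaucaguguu

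miR-29c-3p: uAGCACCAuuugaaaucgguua

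No gene outside the family carried this 3p seed in the RefSeq table of mature microRNAs. Counting positions from 1 at the 5′ end, miR-29a-3p and miR-29c-3p were identical at 21 of 22 bases and differed by C10U. Over the first 22 bases miR-29a-3p differed from miR-29b-3p by C10U, G18A, U21G and A22U, and miR-29c-3p differed from miR-29b-3p by G18A, U21G and A22U. The arm miR-29b-3p is given for 2 genes, Mir29b-1 and Mir29b-2, with the same 23 bases in both. Their hairpins shared a run of 25 bases, shown here in capitals with the neighbouring bases of each hairpin in lower case.

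Mir29b-1: ugUCUAGCACCAUUUGAAAUCAGUGUUcu

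Mir29b-2: uaUCUAGCACCAUUUGAAAUCAGUGUUuu

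The shared run holds the whole of miR-29b-3p, so a read of exactly this arm fits both loci equally well. The base that follows the arm differs between the loci, so a 3p read reaching at least 1 base past its annotated end could be placed at 1 of them. Of the 50 windows of 22 bases in the Mir29b-1 hairpin, 4 also occurred in Mir29b-2, and 1 occurred in Mir29c. No such window was common to Mir29a and any other member, nor to Mir29b-2 and Mir29c.

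The 5p arms, the opposite strands of the stems, differed from gene to gene and are shown because, unlike exact copies of miR-29b-3p, their reads can be placed at 1 of the miR-29b genes. A gene row does not say which arm its reads came from. Capitals again mark bases 2 to 8.

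miR-29a-5p: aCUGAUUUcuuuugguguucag

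miR-29b-1-5p: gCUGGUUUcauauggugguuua

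miR-29b-2-5p: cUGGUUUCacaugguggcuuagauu

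miR-29c-5p: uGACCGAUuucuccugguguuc

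The longest run shared by miR-29b-1-5p and miR-29b-2-5p was 9 bases. The 4 seeds of the 5p arms all differed, and 1 of them, that of miR-29b-2-5p, was also found in a gene outside the family, Mir6338.

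The genes lie at 2 loci, each with a miR-29b gene followed by a partner (build mm10, or GRCm38). On chromosome 6, minus strand, Mir29b-1 (ENSMUSG00000065604, 31063023 to 31063093) precedes Mir29a (ENSMUSG00000065610, 31062660 to 31062747) with 275 bases between them. Mir29b-1 overlaps the first exon of the lincRNA gene Gm27019 by 2 bases, and no gene of annotation M21 other than the microRNA itself covers Mir29a. On chromosome 1, plus strand, Mir29b-2 (ENSMUSG00000065412, 195037040 to 195037120) precedes Mir29c (ENSMUSG00000065548, 195037547 to 195037634) with 426 bases between them. Both lie inside exon 3 of a retained-intron transcript of the non-coding gene A330023F24Rik on the same strand (195033823 to 195037904), and opposite exon 11 of a protein-coding transcript of Cd46 (195036826 to 195042013). Among all transcripts of M21, miR-29a-3p occurred in Mir29a alone, while miR-29b-3p occurred in Mir29b-1, Mir29b-2 and the host A330023F24Rik, and in antisense in Cd46. The arms of Mir29c, and miR-29b-2-5p, likewise occurred in their own gene and in A330023F24Rik, and in antisense in Cd46. Each pair is thought to be processed from a shared primary transcript.

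Counts on the strand of the gene summed to 2607403 in replicate 1 and 4286742 in replicate 2, and levels are given relative to these totals, as counts per 1000000 counted reads (CPM). Each read stands for a whole small RNA, so levels were not divided by gene length. Reads that mapped to several places were assigned to no gene and numbered 2819005 and 4017413, or 1.08 and 0.937 reads for each counted one. As a check of the tissue, the hepatocyte microRNA Mir122 stood at 79994 ± 213 CPM (SD, n = 2), the endothelial Mir126a at 56024 ± 2091, the erythroid Mir451a at 18546 ± 11026, the smooth muscle and mesenchymal Mir143 at 18031 ± 716 and the myeloid Mir223 at 10092 ± 100. These are the leading genes of their lists, and other counted rows were lower. The erythroid list held Mir144 at 6139 ± 377 CPM and Mir486 at 827 ± 10.1. The leukocyte list held Mir155 at 162 ± 37.6 CPM, Mir150 at 27.6 ± 5.41 and Mir142b at 0.658 ± 0.389. On the opposite strand of Mir142b lay 122527 and 194599 reads, which its row leaves out, and Mir142 had no row. Mir142 was thus not measured, and the row of Mir142b does not stand for a low leukocyte level. The mesenchymal list held Mir214 at 2023 ± 141 CPM and Mir145a at 287 ± 3.51. It also held 3 genes that share an arm, Mir199b, Mir199a-2 and Mir199a-1, between 1.81 and 201 CPM. Of lists foreign to liver, neural genes had no counts in 4 of 5 cases and summed to 3.07 and 4.67 CPM. Striated muscle genes summed to 889 and 531 CPM, nearly all from Mir206 at 697 ± 247 CPM, with no counts for 2 of 5. Mir9-2 and Mir9-3 of the neural list share an arm with other loci, and reads that fit several places were left out. No absence of neural or muscle RNA is therefore read from these zeros. Mir206 was, like Mir29a, lower in replicate 2 (871 and 522 CPM), and the part of muscle tissue in the miR-29 levels was not tested. In bulk tissue, few cells of a type and little RNA per cell cannot be told apart, so the cells that hold miR-29 were not identified.

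Mir29a held most of the reads counted for the family. Mir29a had 3105 counts in replicate 1 and 4460 in replicate 2. These gave 1191 CPM (95% exact Poisson interval 1149 to 1233) and 1040 CPM (1010 to 1071), a mean of 1116 ± 106 CPM (SD, n = 2). Intervals here cover counting error only. The reads carry no molecular identifiers, so repeated reads of 1 molecule cannot be told apart from separate molecules, and the intervals may be too narrow. Mir29a took place 91 by level in replicate 1 and place 99 in replicate 2, and its counting intervals in the 2 libraries did not overlap. By mean CPM it was 71.7-fold below Mir122.

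Mir29c, whose 3p arm differs from that of Mir29a at a single base, was about an order of magnitude lower. Its 319 and 566 counts gave 122 CPM (109 to 137) and 132 CPM (121 to 143), a mean of 127 ± 6.85 CPM. The libraries overlapped within counting error. Mir29a exceeded Mir29c by 9.73-fold in replicate 1 (95% interval of the split of counts 8.67 to 11.0) and 7.88-fold in replicate 2 (7.22 to 8.62), a log2 ratio of 3.13 ± 0.22 (SD, n = 2). How the aligner treated mismatches is not given in the sources used here, so a read of one gene that differed at this base may be counted at the other, and this was not tested.

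The miR-29b rows were far lower. Mir29b-1 had 24 and 60 counts, or 9.20 CPM (5.90 to 13.7) and 14.0 CPM (10.7 to 18.02), a mean of 11.6 ± 3.39 CPM. Mir29b-2 had 2 counts in each library, or 0.767 CPM (0.0929 to 2.77) and 0.467 CPM (0.0565 to 1.69). That is below 3 counts (1.15 and 0.7 CPM), the bound that a row with no reads would leave. Mir29b-1 was thus measured with wide error, and the level of Mir29b-2 rests on 2 reads per library. Because reads of the shared arm miR-29b-3p fit both loci and multiply placed reads are left out, both rows count only what could be placed at 1 locus, and neither limits the level of mature miR-29b. The share of the multiply placed reads that came from miR-29b was not analysed here.

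**Figure D1:**
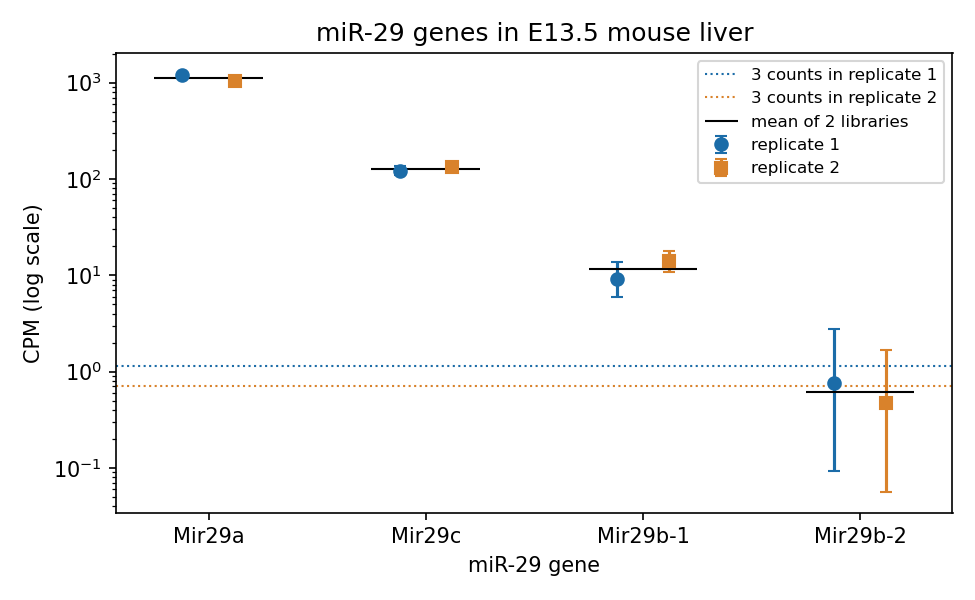
Level of each miR-29 gene in CPM on a log axis. Points are the 2 libraries, bars are 95% exact Poisson intervals of the counts, black lines are means, and dotted lines mark 3 counts in each library. The genes fall in the same order in both libraries, from Mir29a at 1116 CPM through Mir29c at 127 and Mir29b-1 at 11.6 to Mir29b-2 at 0.617, and both points of Mir29b-2 lie below the lines for 3 counts.

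The order Mir29a, Mir29c, Mir29b-1, Mir29b-2 held in both libraries, and the counting intervals of neighbours in this order did not overlap within either library. With 2 libraries an exact test across samples cannot give a two-sided p below 0.5, so the order is described and not tested. Within the chromosome 6 locus, Mir29a exceeded Mir29b-1 by 129-fold in replicate 1 (86.8 to 202) and 74.3-fold in replicate 2 (57.6 to 97.6), a log2 ratio of 6.62 ± 0.57. Within the chromosome 1 locus, Mir29c exceeded Mir29b-2 by 160-fold (43.8 to 1323) and 283-fold (78.0 to 2343), a log2 ratio of 7.73 ± 0.58 that rests on 2 counts of Mir29b-2 per library. In each locus the partner with a 3p arm of its own was thus far above the gene whose 3p arm has a copy. Between the miR-29b genes, Mir29b-1 exceeded Mir29b-2 by 12-fold (2.98 to 105) and 30-fold (7.95 to 253), so the 2 rows were unequal beyond counting error.

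Summed over the 4 genes, the family had 3450 counts in replicate 1 and 5088 in replicate 2, which were 0.132% (95% exact Clopper-Pearson interval 0.128 to 0.137) and 0.119% (0.115 to 0.122) of counted reads, or 1255 ± 96.3 CPM (SD, n = 2). Mir29a made up 90.0% of the family sum in replicate 1 (89.0 to 91.0) and 87.7% in replicate 2 (86.7 to 88.5). Mir29c made up 9.25% (8.30 to 10.26) and 11.1% (10.27 to 12.02), with intervals that fell just short of overlapping. The 2 miR-29b rows together made up 0.754% and 1.22%. The chromosome 6 locus summed to 1127 ± 103 CPM and the chromosome 1 locus to 128 ± 6.64 CPM, a log2 ratio of 3.14 ± 0.21. The sums omit every read of miR-29b-3p that fits both loci, so the shares describe counted reads and not the makeup of the mature family. Each member had 0 counts on the opposite strand in both libraries, so transcripts in antisense, such as that of Cd46 across the chromosome 1 locus, left no read counted at the members.

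**Figure D2:**
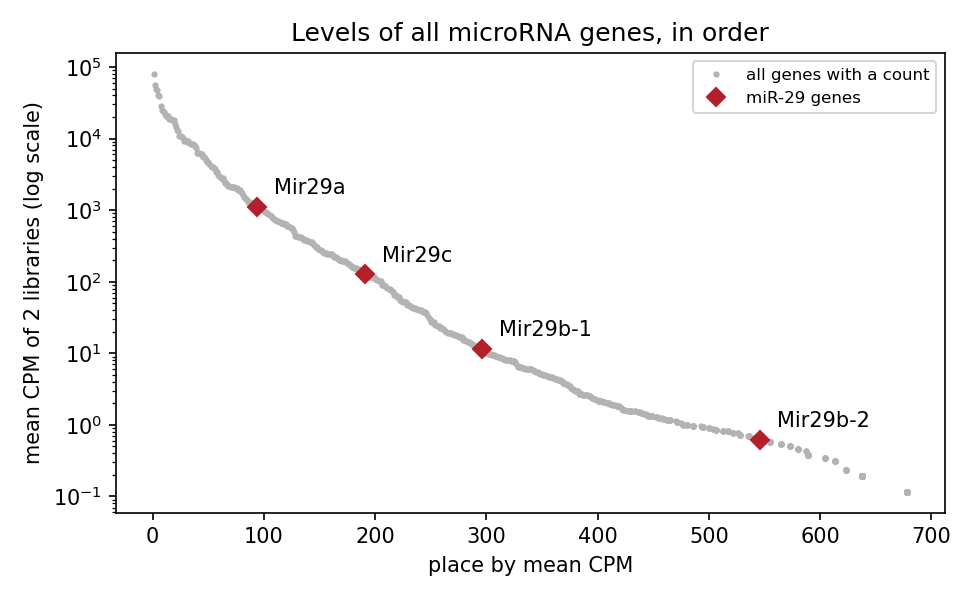
Mean CPM of each microRNA gene with a count (log axis) against its place by mean CPM, with the miR-29 genes as red diamonds. Mir29a is at place 94, Mir29c at place 191, Mir29b-1 at place 296 and Mir29b-2 at place 546, among the rarest genes with a count.

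Of the 4 members, 3 had at least 10 counts in each library, as did 367 of all 1973 genes. The genes nearest in level were named by the distance of log2(CPM + 1) over the 2 libraries, and closeness in level says nothing of shared function. Mir149 lay nearest to Mir29a (distance 0.095), at 1144 ± 48.0 CPM, followed by Mir467e at 1168 ± 63.6 and Mir3071 at 1110 ± 10.03. Mir19a, a member of the growth-promoting miR-17-92 cluster, lay nearest to Mir29c (0.055), at 131 ± 7.92 CPM, followed by Mir96 at 137 ± 13.2 and Mir132 at 117 ± 6.42. Mir582 lay nearest to Mir29b-1 (0.15), at 12.2 ± 2.57 CPM, followed by Mir3064 at 12.3 ± 1.70 and Mir450-2, whose row is itself uncertain because Mir450-1 shares an arm with it, at 13.3 ± 3.02. The mean levels of these 9 neighbours differed from that of their miR-29 gene by less than the sum of the SDs, which follows from how they were chosen.

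The libraries were then compared gene by gene, by a two-sided exact binomial test of each gene's split of counts with p-values adjusted by Benjamini-Hochberg across all 711 genes that had a count. This test compares 2 libraries and no conditions. Over all genes it called 143, which is 20.1%, with 61 higher in replicate 2 and 82 lower (11.5% of genes tested). With TMM scaling the split was 72 higher and 63 lower. Among the miR-29 genes 1 of 4 was called: Mir29a fell by 0.19 on the log2 scale from replicate 1 to replicate 2 (95% counting interval -0.26 to -0.13, adjusted p = 9.84e-08, exact binomial test), or 1.14-fold. The median gene with at least 10 counts in each library differed by 1.13-fold, and 166 of 367 differed by more than Mir29a. Many of these genes had far fewer counts than Mir29a and so more counting error, so these values do not place Mir29a among genes of like depth. Whether it differed more than such genes was not tested. Genes with as many reads were often called, 31 of 58 within 2 times the mean level of Mir29a.

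Mir29c was higher by 0.11 in replicate 2 (interval -0.09 to 0.31, adjusted p = 0.549, exact binomial test) and was not called. Mir29b-1 gave 0.60 on 24 and 60 counts (interval -0.10 to 1.35, adjusted p = 0.26, exact binomial test), a 1.52-fold difference that this depth could not separate from counting error. Mir29b-2 gave -0.72 on 2 and 2 counts (interval -4.50 to 3.07, adjusted p = 0.841, exact binomial test), which carries no information on a difference. At the chromosome 6 locus the 2 genes moved in opposite directions. Their intervals did not overlap (Mir29a -0.26 to -0.13, Mir29b-1 -0.10 to 1.35), though that of Mir29b-1 spanned 0. At the chromosome 1 locus the intervals of both genes spanned 0. A difference of these shifts was not tested.

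**Figure D3:**
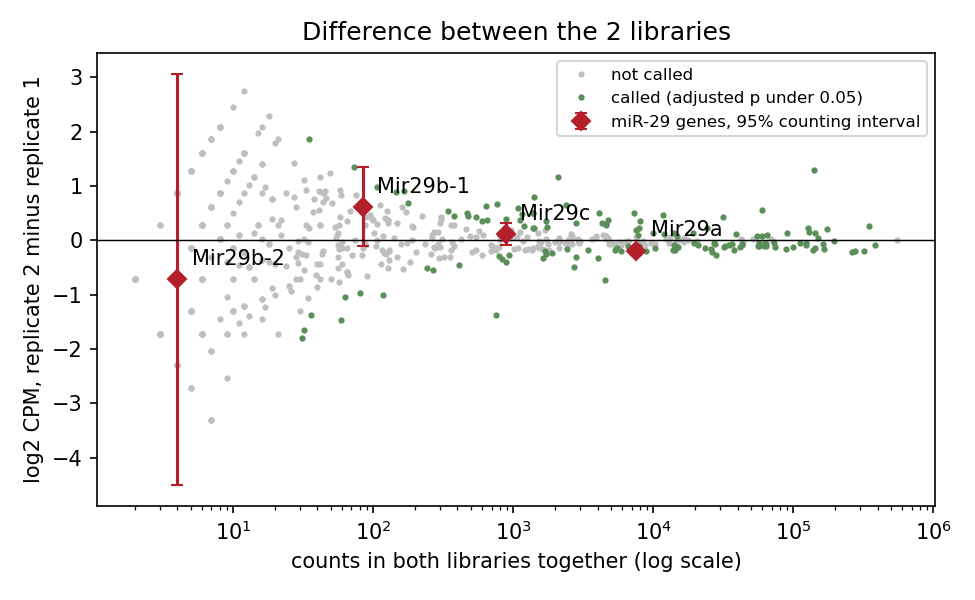
Difference between the libraries, as log2 CPM of replicate 2 minus replicate 1, against the counts of both libraries together (log axis), for genes with a count in each library. Green points were called, grey points were not, and red diamonds with 95% counting intervals are the miR-29 genes. The interval of Mir29a lies wholly below 0 at -0.19, while those of Mir29c, Mir29b-1 and Mir29b-2 span 0 and widen as counts fall.

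To set the low miR-29b rows beside like cases, levels were read for other genes with an identical mature arm at another locus. In the miR-26 family, which restrains proliferation, the arm miR-26a-5p comes from Mir26a-1 and Mir26a-2. Mir26a-1 had 31 and 34 counts (9.91 ± 2.80 CPM) and Mir26a-2 had 113 and 178 (42.4 ± 1.28 CPM). Their relative Mir26b, with an arm of its own, stood at 38964 ± 3913 CPM. In the miR-30 family, Mir30c-1 and Mir30c-2, which share miR-30c-5p, stood at 86.8 ± 4.55 and 53.2 ± 0.688 CPM. Of their relatives without a copy, Mir30e stood at 18670 ± 1445 CPM, Mir30a at 12889 ± 905, Mir30d at 5612 ± 334 and Mir30b at 140 ± 19.0. Mir30b thus lay near the copies, so a low row alone does not mark a copy.

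Mir24-2, which shares miR-24-3p with Mir24-1 (not analysed here), stood at 228 ± 2.88 CPM. It lay below Mir23a at 12960 ± 1055 CPM, Mir23b at 7406 ± 87.8 CPM, Mir27b at 702 ± 25.2 CPM and Mir27a at 240 ± 17.99 CPM, the genes of its cluster and of the paralogous one. Mir27a and Mir24-2 were not separated by counting error, with 1.10-fold in replicate 1 (0.983 to 1.23) and 1.01-fold in replicate 2 (0.921 to 1.10). All 7 counted genes of these copied pairs lay below each listed relative in both libraries, where those of Mir24-2 are cluster genes and not of its family. These groups were chosen with their levels known, so the count is a description, and the part of multiple placement in it was not tested. Some other copied genes were high. Of the 87 genes with a copied arm, 4 exceeded Mir29a by mean CPM, beside 82 of 829 genes without one. The 4 are named here after their values were seen: Mir92-1 at 8365 ± 442 CPM, Mir16-1 at 6256 ± 183, Mirlet7f-2 at 1214 ± 33.0 and Mir194-2 at 1128 ± 129. In replicate 1 Mir194-2 lay below Mir29a, at 1036 against 1191 CPM. Mir16-1, whose copy is Mir16-2, exceeded its relatives Mir15b at 3056 ± 136 CPM and Mir195a at 279 ± 32.6, which have no such copy, against the order seen in the 7 genes, and lay below Mir15a at 8572 ± 324. At 0.617 ± 0.212 CPM, Mir29b-2 was the lowest of the 7.

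**Figure D4:**
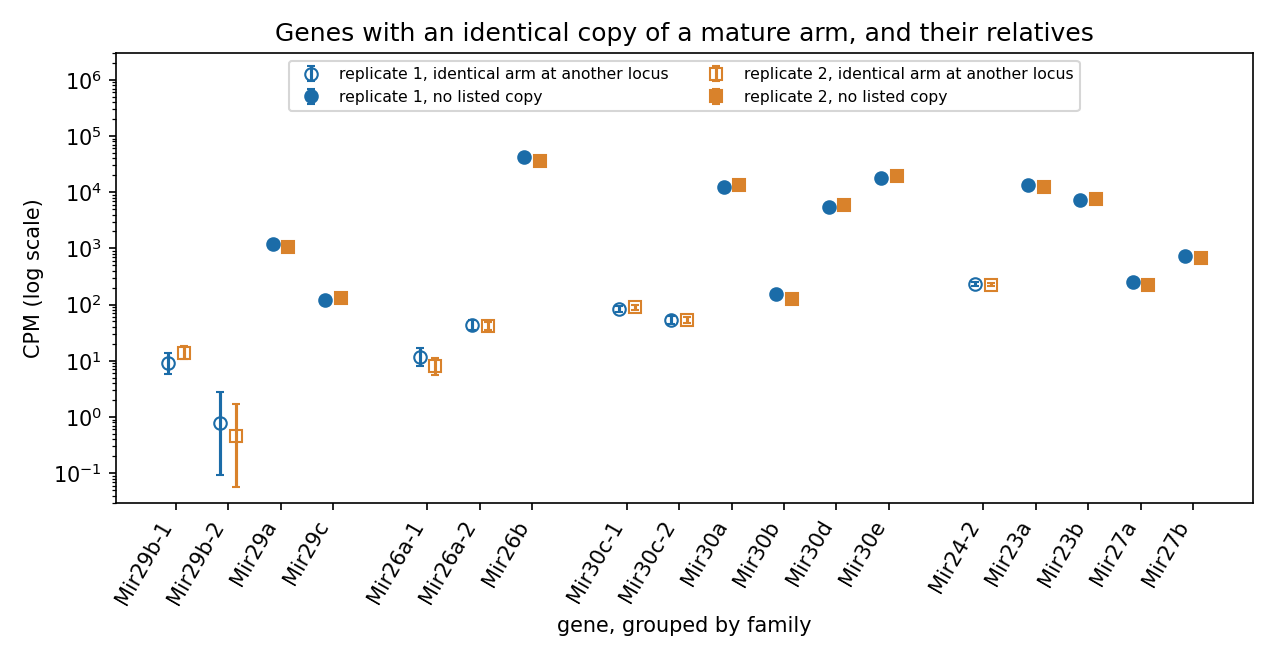
CPM (log axis) of genes with an identical mature arm at another locus (open symbols) and of relatives with no listed copy (filled symbols), by group, with 95% exact Poisson intervals. For Mir24-2 the filled symbols are genes of its cluster and of the paralogous one, not of the miR-24 family. Open symbols lie below the filled ones within each group, from Mir29b-2 at 0.617 to Mir24-2 at 228 CPM. Mir24-2 and Mir27a are almost level.

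Over the 916 counted genes with a mature sequence in the RefSeq table, 87 shared an arm with another locus. Of these, 40 had at least 10 counts in each library (46.0%), against 289 of 829 genes without such a copy (34.9%). The median level of all 87 was 2.39 CPM and that of the 829 was 0.692 CPM. Among the genes with at least 10 counts the order turned: the median was 52.9 CPM with a copy and 189 CPM without. With copies defined by a shared run of at least 18 bases between hairpins, these medians were 125 and 168 CPM, and the median over all copied genes was 8.12 CPM, so the size of the gap depends on the definition. Having a copy thus did not go with fewer reads in every view, and the miR-29b rows lay on both sides of the median of all copied genes, Mir29b-1 above it and Mir29b-2 below it.

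Other microRNAs linked to matrix, stellate cells or epithelial to mesenchymal transition were set beside miR-29 as a list of 22 genes. Of these, 20 had a count and 8 exceeded Mir29a in both libraries. Mir21a, known for its rise in fibrosis, stood at 23818 ± 796 CPM, which is 21.3 times the level of Mir29a. Mir30e, Mir30a and Mir30d, members of a family known to restrain epithelial to mesenchymal transition, and Mir143 exceeded Mir29a by between 5.03 and 16.7 times. Mir192, enriched in hepatocytes, stood at 2771 ± 195 CPM. The other 14 lay below Mir29a in both libraries, and 9 of them also lay below Mir29c. Mir133a-1 and Mir133a-2 had no counts. The lookup listed no shared arm for them, but it also lists none for a gene without a sequence in the RefSeq table. No limit is therefore read from their zeros.

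Between the libraries, 13 of these 20 genes were called, 9 higher and 4 lower in replicate 2, against 20.1% of all genes. That share also covers rows with few counts, while 19 of the 20 had at least 10 counts in each library. Limited to the 367 genes with at least 10 counts in each library, the test called 150. Whether the list differed from genes of like depth was not tested. With TMM scaling 9 were higher and 3 lower, since Mir30b was no longer called. The median difference of the 19 genes with at least 10 counts in each library was 0.13 on the log2 scale, beside -0.03 over all such genes. Mir30e was higher in replicate 2 (17648 and 19692 CPM, adjusted p = 9.35e-79, exact binomial test), and Mir21a was lower (24381 and 23255 CPM, adjusted p = 3.03e-19, exact binomial test), like Mir29a. Differences of other called genes were larger than the median of 0.17 over genes with at least 10 counts in each library: Mir133b gave -0.97 on 44 and 37 counts, Mir200c 0.50, Mir141 0.44 and Mir200b 0.32, chosen after their values were seen. Mir200c, Mir141 and Mir200b, which restrain epithelial to mesenchymal transition, were higher in replicate 2, opposite to Mir29a.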

How the data were processed

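The authors deposited, for each library, raw read counts per gene on mm10 and GENCODE M4, as the labels and deposited file lists state. Aligner and counter: not given in the sources used here. RNA below 30 bases was selected, per the labels. Sense-strand counts were analysed, 2607403 and 4286742, against 2909040 and 4790617 counted at genes when strand was ignored. Multiply placed, unmapped and unassigned reads (36.7%, 19.6% and 5.72% of 7671547 reads in replicate 1, and 32.0%, 24.2% and 5.64% of 12554684 in replicate 2) stood in rows of their own and were left out. These shares were taken from the counts that ignore strand. A gene row joins both arms of a hairpin. Symbols and coordinates came from GENCODE M21, whose records of Mir29b-1 and Mir29b-2 are later versions than those counted; 1894 of 1973 identifiers matched. RefSeq (GRCm38.p6) gave sequences for all 4 members.

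CPM used the total of counted genes. The members and lists were chosen with earlier results of these data known. Named genes were the members, the 3 genes nearest to each in level, the copied pairs with their relatives, 5 tissue markers, the 6 matrix-linked genes with the highest levels and those without counts, and genes sharing a seed. A gene with at least 10 counts in each library counted as detected. The exact binomial test with Benjamini-Hochberg adjustment (threshold 0.05) was tested on simulated Poisson counts. These held no replicate spread beyond counting error, so they do not show how the test behaves with such spread. Tools were Python 3.11.15, scipy 1.17.1, and, for scaling alternatives, edgeR 4.0.16 (TMM) and DESeq2 1.42.0.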

Additional observations from a re-analysis of the deposited data

How the results depend on the processing

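Among the alternatives tried, the denominator moved levels by more than 1 SD. Per 1000000 of all reads in the tables, Mir29a stood at 380.0, Mir29c at 43.3, Mir29b-1 at 3.95, Mir29b-2 at 0.21 and the family sum at 427. With counts of both strands the total grew, and Mir29a stood at 999 CPM, Mir29c at 114 CPM and the family at 1124 CPM. The ratios between members are free of the denominator, and TMM and DESeq2 scaling moved no member's level by 1 SD. Without replicate 1 or without replicate 2 the log2 ratios stayed positive, from 6.22 to 7.02 for Mir29a over Mir29b-1, 7.32 to 8.14 for Mir29c over Mir29b-2 and 2.98 to 3.28 for Mir29a over Mir29c. A mean of 2 values lies within 1 SD of each of them, so leaving either library out is no test of stability. Mir29a was called and the other members were not under each scaling, strand and count filter tried (adjusted p of Mir29a from 5.08e-08 to 1.21e-05, exact binomial test), except that Mir29b-2 did not enter the filter of at least 10 counts, and the number of called genes ran from 135 to 153. A copy defined by a shared run of at least 18 bases between hairpins gave 121 genes in place of 87. Filtering at 1 count left the 3 nearest genes of each member the same. No paired analysis was possible because both libraries belong to a single group. Depth limits Mir29b-1 and Mir29b-2, and multiple placement limits both whatever the depth.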
